A study of Rattus norvegicus with 35 samples.

Results

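The bacteria of the colon were set against those of the faeces in control rats, the animals of the study that received no footshock. The comparison took all libraries labelled as controls: 19 of the 35 libraries of the series, 10 from colon and 9 from faeces. Colon controls carried the numbers 1 to 10 and faecal controls the numbers 1 to 8 and 10. The series also holds 8 colon and 8 faecal libraries of rats given footshocks, which serve below as separate libraries in which the same comparison could be repeated. The labels give no strain, age or sex, and do not say whether a colon library holds the wall, the mucus or the contents of the organ. Whether the libraries stem from different rats is not stated either, and p-values reflect how much libraries vary, which may be technical.

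The gene of the 16S ribosomal RNA is carried by all bacteria, and its variable regions differ between kinds of bacteria, so that counting amplified copies gives a profile of a community. Bacteria of the colon live in the lumen and in the mucus layer over the epithelium, and those near the tissue are known to differ from those in the lumen. Faeces are material that has left the colon and are often sampled in place of it. Read counts of this kind give shares within a library and not numbers of bacteria, so a feature can gain in share because others lost. Each feature is a distinct sequence class, known here by a 32-character code. The table pairs no code with a bacterial name or a sequence, so features are described by their rank in abundance and 3 of them by code.

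Control colon libraries held 638 to 16155 reads (median 4093) and control faecal libraries 4703 to 19112 (median 9442). The geometric mean was 2.15-fold higher in faeces (two-sided exact permutation test, p = 0.0398) and 2.60-fold higher without both libraries numbered 1 (exact permutation p = 0.0126). For a count of 0, a floor of 3 reads was taken as the limit. It averaged 0.111% of a colon library and 0.0353% of a faecal library, and it reached 0.470% in colon 8, the library of 638 reads. The two-sided exact intervals at 0 reads reach somewhat higher, to a mean of 0.136% in colon and 0.0434% in faeces, and counts of 1 are absent from the table, so lower bounds of folds below hold against the floor alone. A feature absent from colon was thus less firmly absent than one absent from faeces. The 95% exact (Clopper-Pearson) interval of a feature's share was at most 5.53 percentage points wide in colon 8, and at most 2.17 in the other colon and 2.05 in the faecal libraries. Floors and intervals cover counting error only, since reads of PCR products are not independent molecules. All 81 pairs of libraries within a group differed by more than sampling noise (chi-square per degree of freedom 9.50 or more).

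Both libraries numbered 1 stood apart from their groups. The Bray-Curtis distance is 0 between libraries with the same shares and 1 between libraries with no feature in common. Colon 1 had a mean distance of 0.678 to the other colon libraries and of 0.473 to the faecal libraries other than number 1, so its composition was nearer to faeces. Its nearest library of all was one of shocked faeces, at 0.397. Faeces 1 was far from everything: its mean distance was 0.961 to the other faecal libraries, where these had 0.522 to 0.578, and 0.917 to colon. The nearest of the other 34 libraries, colon 10, was 0.762 away. Its leading feature held 23.0% of its reads and was read in 1 other of the 35 libraries, faeces 3, at 0.0105%. Results are therefore given with and without both.

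Composition differed between colon and faeces. Of the variation in Bray-Curtis distance, 19.7% lay between the compartments (exact permutational analysis of variance over all assignments of the 19 libraries, p = 0.000617), and 31.4% without the libraries numbered 1 (exact permutation p = 8.23e-05). Libraries numbered 1 stood apart by these same distances, so the value without them is not independent of leaving them out. A colon and a faecal library were 0.688 ± 0.128 apart (SD over 90 pairs), against 0.570 ± 0.103 between colon libraries (45 pairs) and 0.600 ± 0.201 between faecal libraries (36 pairs). Without number 1 these distances were 0.680, 0.543 and 0.497. The nearest library in the whole series was a colon library for 8 of 10 colon controls and a faecal library for 8 of 9 faecal controls. The exceptions were colon 1, colon 6 and faeces 1. The spread of libraries around their group centre did not differ detectably (exact permutation p = 0.874, and 0.297 without number 1).

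**Figure D1:**
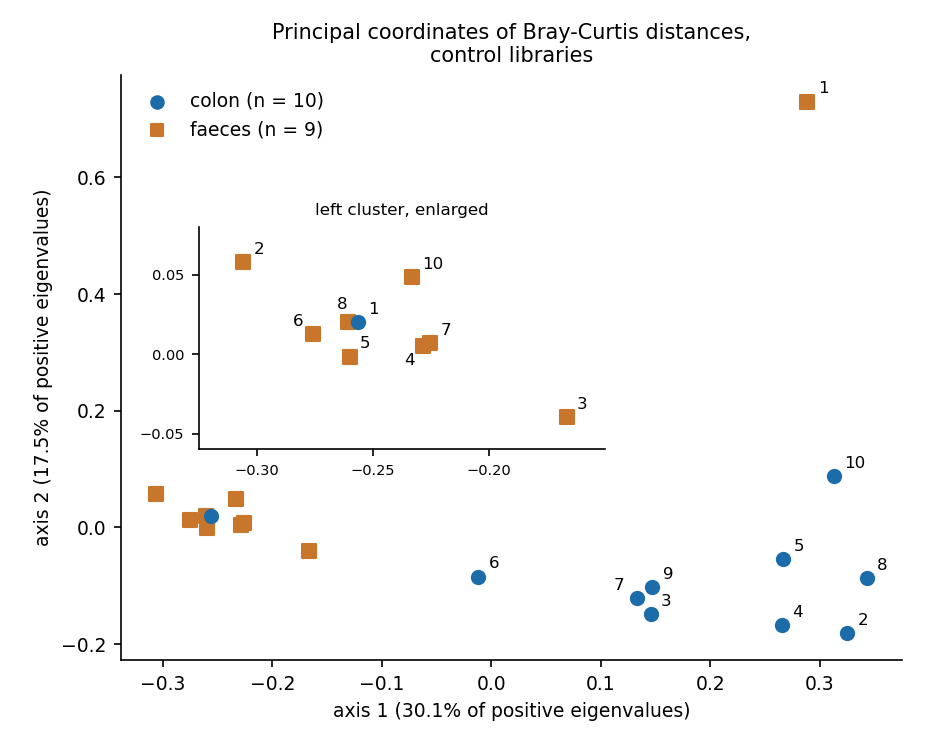
Principal coordinates of the Bray-Curtis distances between the 19 control libraries (axis 1, 30.1%, and axis 2, 17.5%, of the sum of positive eigenvalues), with circles for colon, squares for faeces and the library number beside each point. The inset enlarges the left cluster, where 8 faecal libraries lie together with colon 1, while faeces 1 lies alone at the top right and the other 9 colon libraries spread to the right of the faecal cluster.

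No difference in diversity passed the unpaired exact permutation test. Rarefied to 1000 reads, a depth that colon 8 did not reach, colon held 106.4 ± 29.0 features (SD, n = 9) and faeces 102.7 ± 29.1 (SD, n = 9), and the exact permutation test gave p = 0.791 (0.791 adjusted over 3 diversity measures). The Shannon index, higher where reads are spread evenly over many features, was 3.89 ± 0.363 in colon and 3.69 ± 0.351 in faeces (SD, n = 9 each; exact permutation p = 0.239, adjusted p = 0.717). The 10 most abundant features of a library took 51.4% ± 13.8 of reads in colon (SD, n = 10) and 54.4% ± 8.38 in faeces (SD, n = 9; p = 0.578 by exact permutation, adjusted 0.791). None of the 3 differences was larger than the spread between libraries, and none became so without number 1 (exact permutation p = 0.881, 0.414 and 0.806). The difference in features, 3.65 higher in colon over all libraries, was -2.21 without number 1 and so has no settled direction.

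**Figure D2:**
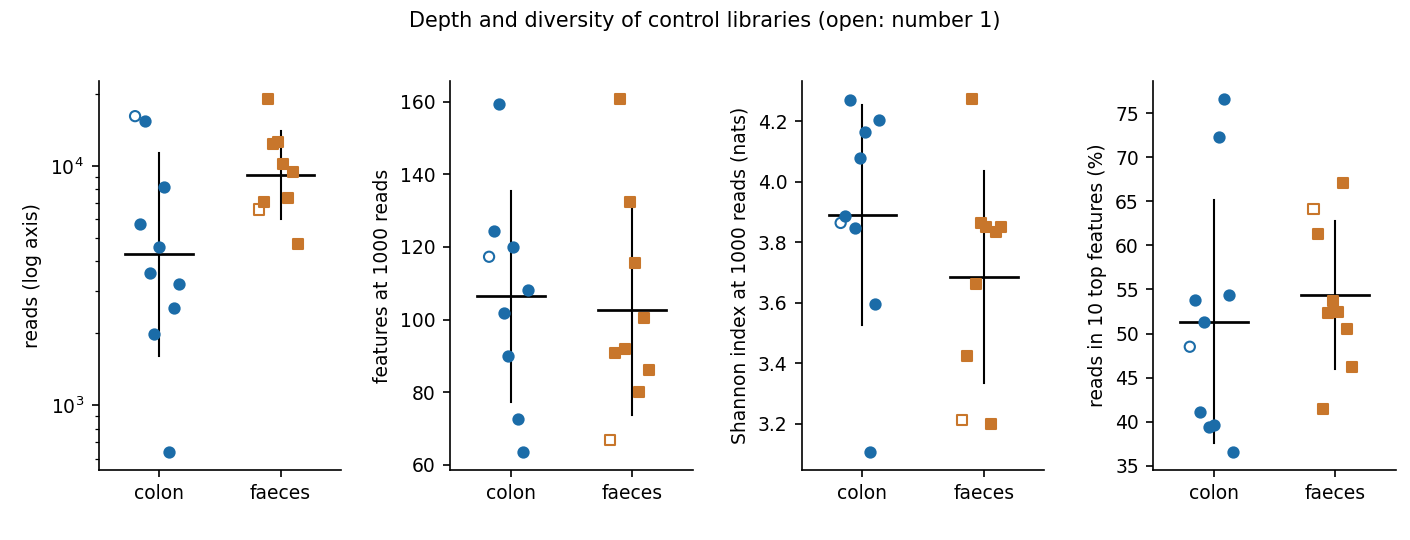
Reads per library (log axis), features and Shannon index (nats) at 1000 reads, and the share of reads (%) in the 10 most abundant features, for control colon (circles) and control faeces (squares), with open symbols for the libraries numbered 1. Horizontal lines are means (geometric for reads) and vertical lines 1 SD either side. The geometric mean of reads was lower in colon, and the groups overlapped in every measure shown, reads included.

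Of the 763 features read in controls, 482 were read in colon, 562 in faeces and 281 in both, which is 58.3% of the colon features and 50% of the faecal ones. The shared features held most reads, 86.2% ± 11.2 in colon (SD, n = 10) and 90.2% ± 12.9 in faeces (SD, n = 9). Without number 1 the shared set was smaller, 240 features. These held 82.3% ± 13.6 of reads in colon (SD, n = 9) and 92.6% ± 4.24 in faeces (SD, n = 8). Many features were rare: 404 of the 763 were read in 1 control library each and together took 3.61% of reads.

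A small common core ran through both compartments. Of the features, 10 were read in every colon library and took 35.7% ± 5.62 of colon reads (SD, n = 10), and 9 of these 10 were also read in each of the 8 faecal libraries other than number 1. Those 8 faecal libraries had 26 features in common, which took 61.9% ± 7.77 of their reads (SD, n = 8) and 4.56% of the reads of faeces 1. With faeces 1 included, 4 features were read in every faecal library and 3 in every control library of both compartments. The 10 most abundant features of colon and the 10 of faeces, by mean share, had 3 features in common.

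Among single features, more of those called were higher in colon than in faeces. Each of 138 features, found in 25% or more of the 19 libraries, was tested with edgeR's quasi-likelihood test, and 8 had an adjusted p (Benjamini-Hochberg) under 0.05 and are termed called, 5.8% of those tested. Of the 8, 7 were higher in colon (5.07%) and 1 in faeces (0.725%). Of the 10 most abundant colon features 6 were called, and of the 10 most abundant faecal features 0, against 5.8% of all tested. With calls made without the libraries numbered 1 these counts were 7 and 2, against 13.1%, the ranks being kept from all 19 libraries. Rank 7 in faeces, read in 2 control libraries, was too rare to be tested. Ranks and calls came from the same libraries, so these counts are not independent of the ranking. An unadjusted p under 0.05 was reached by 16 of all 138 (11.6%). DESeq2 called 5 features, all higher in colon and all 5 among the 8. With limma on centred log-ratios, 4 were called higher in colon and 2 in faeces, and 3 of these 6 were among the 8. Without the libraries numbered 1, 16 of 122 features were called (13.1%), 12 higher in colon (9.84%) and 4 in faeces (3.28%), and all of the 8 were among them. With 1 library left out at a time the count was 5 (without faeces 10) to 15 (without faeces 3). The median log2 fold change of all features tested, colon over faeces, was -0.08 with edgeR's TMM normalization and -0.38 in DESeq2. With library totals alone in place of TMM it was -0.36, and 7 features were called, 6 higher in colon and 1 in faeces.

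The 7 features called higher in colon made up 28.1% ± 18.3 of reads in colon (n = 10, SD), with a lowest share of 1.16%, a median of 27.9% and a highest of 60.2%. In faeces they made up 2.78% ± 1.60 (n = 9, SD), with 0.460%, 2.27% and 5.36%. Colon 1 was the colon library at 1.16%, a level within the faecal range, and the other 9 colon libraries lay at 9.38% or more, above every faecal library. No test is given for these sums, since the features were chosen from these libraries. They fall into 2 kinds, 4 features that were also read in faeces and 3 that were not.

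**Figure D3:**
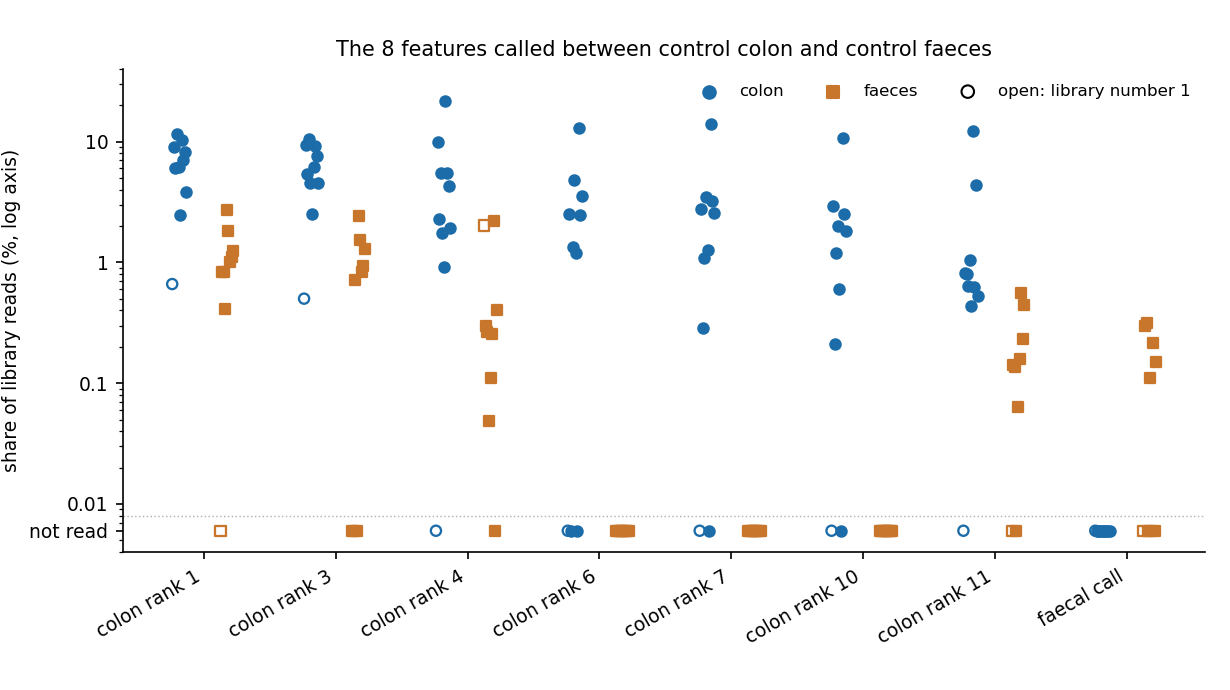
Share of library reads (%, log axis) of the 8 called features in each control library, circles for colon and squares for faeces, with open symbols for the libraries numbered 1 and features not read placed on the lowest line. The 7 colon features are ordered by their mean share in colon, and the faecal call stands last. In colon ranks 6, 7 and 10 no faecal library held a read, and the open colon symbol lies at the bottom of each colon group.

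The most abundant feature of control colon, f44404ea806c18f6b05b7cbb4f3e5fd2, was read in all 10 colon libraries, at 0.662% in colon 1, 2.45% in colon 6, 3.83% in colon 10, 6.004% in colon 3, 6.13% in colon 5, 7.05% in colon 8, 8.26% in colon 9, 9.11% in colon 2, 10.3% in colon 7 and 11.7% in colon 4. In faeces it was not read in faeces 1, and its share was 0.412% to 2.74% in the other 8 libraries, with a median of 1.02% over all 9. Apart from colon 1, colon 6 was the colon library within the faecal range. It averaged 6.55% ± 3.49 in colon (SD, n = 10) against 1.11% ± 0.794 in faeces (SD, n = 9), which is 5.91-fold higher (log2 fold change 2.82, SE 0.82, edgeR adjusted p = 0.0230), and it was higher in colon in all 9 numbers that have both libraries. Without number 1 it was 5.78-fold higher (edgeR adjusted p = 1.60e-05). The call was lost with TMMwsp normalization (adjusted p = 0.0799) and with limma (adjusted p = 0.380).

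The feature of rank 3 in colon, e335f74033bc634af43ee6baa84fa247, ran beside it. It was read in all 10 colon libraries, at 0.501% in colon 1 and 2.52% to 10.6% in the others (median over all 5.81%), and in 6 of 9 faecal libraries, with a median of 0.826% and a highest share of 2.44%. Without number 1 its lowest colon share lay above its highest faecal share, and the means were 6.90-fold apart (edgeR adjusted p = 0.00336). Over all libraries the means were 6.06% ± 3.21 in colon (SD, n = 10) and 0.859% ± 0.820 in faeces (SD, n = 9), a 7.05-fold difference (log2 fold change 3.05, SE 0.94, edgeR adjusted p = 0.0296). This call was lost with DESeq2 (adjusted p = 0.162), limma (0.0762) and TMMwsp (0.0799), and without colon 9 (0.0507) or faeces 7 (0.0540). The reads of the first feature were 0.763 to 1.66 times those of this one in the 10 colon libraries (median 1.09), and 0.951 to 1.23 times in the 6 faecal libraries that held both. Within colon both were lowest in colon 1, next lowest in colon 6 and highest in colon 4.

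The features of rank 4 and 11 in colon were far higher in colon 7 than in the other colon libraries. Rank 4 was not read in colon 1, had a median of 3.30% over the 10 colon libraries and reached 21.7% in colon 7 (95% exact interval 20.8% to 22.6%). It was read in 8 of 9 faecal libraries, with a median of 0.267% and 2 high values, 2.02% in faeces 1 and 2.19% in faeces 7. Its mean was 8.67-fold higher in colon (edgeR adjusted p = 0.0152), and the call was lost without colon 7 (5.75-fold, adjusted p = 0.0705), without faeces 10 (0.0506), with limma (0.380) and with a filter at 50% of libraries (0.109). Without number 1 the difference was 13.4-fold (edgeR adjusted p = 0.000847). Rank 11 had a median of 0.722% in colon and reached 12.3% in colon 7 (95% exact interval 11.6% to 13.1%), against a median of 0.142% and a highest share of 0.555% in faeces. Its mean was 11.2-fold higher in colon (edgeR adjusted p = 0.0272), but without colon 7 the means were 5.36-fold apart with an adjusted p of 0.360, and 10 of the 31 settings with a value did not call it. Without number 1 the difference was 11.1-fold (edgeR adjusted p = 0.00336).

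The other 3 were read in colon and in none of the 9 control faecal libraries. They held ranks 6, 7 and 10 in colon, at 2.89% ± 3.91, 2.86% ± 4.11 and 2.21% ± 3.20 of reads (SD, n = 10 each), and were read in 7, 8 and 8 of 10 colon libraries. Against the mean faecal floor of 3 reads per library, they were at least 81.9-fold, 81.1-fold and 62.7-fold higher in colon (edgeR adjusted p = 3.76e-07, 3.05e-07 and 6.33e-07), and without number 1 at least 94.4-fold, 93.5-fold and 72.3-fold. Colon 8 held the highest share of each, and without it the means were 1.76%, 1.63% and 1.26% and the bounds 50.01-fold, 46.2-fold and 35.6-fold. Each kept its call in all of the 30 settings that could test it, with a highest adjusted p of 0.00245. With no faecal read, the 3 passed the filter through colon alone and could be called in that direction only. The 3 came as a group: 7 colon libraries held all of them, colon 3 held 2, and colon 1 and colon 7 held none.

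Their shares were higher in colon libraries with fewer reads. Together the 3 made up 37.8% of the reads in colon 8, the library of 638 reads, 3.06% to 10.3% in the 6 libraries of 1990 to 5744 reads, 0.497% in colon 3 (15490 reads) and 0% in colon 7 (8150 reads) and colon 1 (16155 reads). Across the 10 libraries the share fell with log2 reads (Pearson's r = -0.855, permutation p = 0.00021, and Spearman's rho = -0.906, permutation p = 0.00061, with adjusted p = 0.00042 and 0.00122 over 2 relations), and r was -0.803 without colon 1 and colon 8, the 2 libraries farthest from the median depth (exact permutation p = 0.0144). The total number of reads is also the divisor of the share. In reads, the 3 gave 77 to 471 per library in the 8 that held them, a 6.12-fold range, while the totals of these libraries spanned 24.3-fold. As 1 example at like depth, colon 6, with 4607 reads, gave 141 reads of the 3, and faeces 10, with 4703 reads, gave 0. What underlies the relation was not tested. The relation was singled out after its values were seen.

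The same relation was computed over all 201 features read in control colon and not in control faeces. They took 13.8% ± 11.2 of colon reads (SD, n = 10, lowest 2.36%, median 10.1%, highest 40.4%). The called features described above are among the 201 and by themselves took a mean of 7.96% of colon reads. This relation is therefore not independent of the earlier one, and whether the share of the remaining features fell with depth was not tested. The share of all 201 fell with log2 reads (r = -0.852, permutation p = 0.00158, and rho = -0.830, permutation p = 0.0047). Both p-values were the same after adjustment over the 2 overlapping relations. Without number 1, r was -0.840 (n = 9, exact permutation p = 0.00601) and rho -0.800 (exact permutation p = 0.0138). Without both colon 1 and colon 8, r was -0.614 (n = 8, exact permutation p = 0.104) and the relation no longer passed the test.

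**Figure D4:**
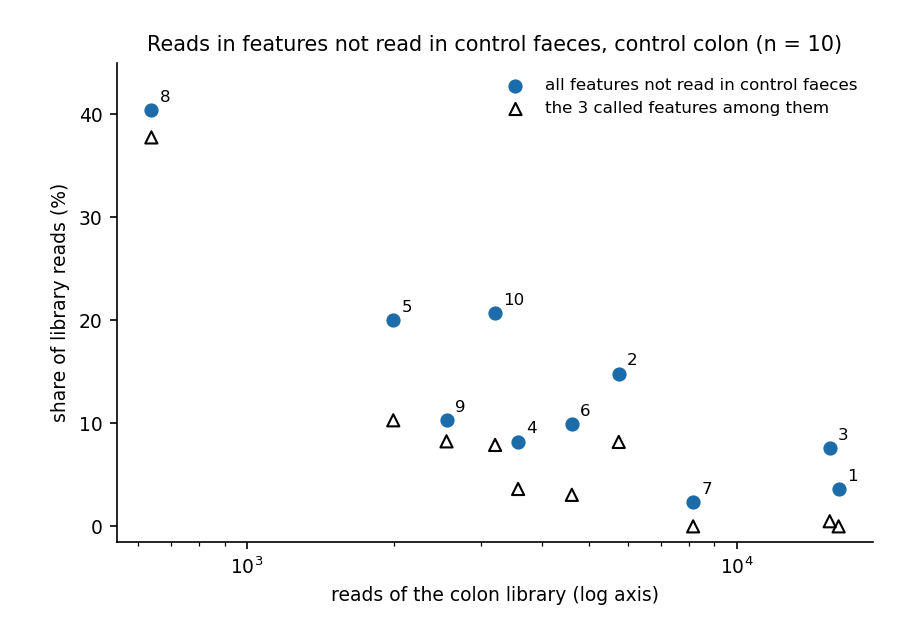
Share of reads (%) in features not read in any control faecal library, for all 201 such features (circles) and the 3 called ones (triangles), against the reads of each of the 10 control colon libraries (log axis), with library numbers beside the points. Colon 8, with 638 reads, is highest for both, and the 3 libraries of most reads are lowest for the 3 called features.

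On the faecal side the call fell on a rare feature. Feature fe9a3e2c5c45bec637506a2ae1eb243c was read in 5 of 9 faecal libraries, at 0.111% in faeces 5, 0.149% in faeces 10, 0.217% in faeces 7, 0.298% in faeces 2 and 0.314% in faeces 3, and in 0 of 10 colon libraries. Its faecal mean of 0.121% ± 0.131 (SD, n = 9) was close to the mean colon floor of 0.111% and under the mean exact limit of 0.136%, so no lower bound of the difference is given (fitted log2 fold change -6.33, SE 1.82, edgeR adjusted p = 0.0230). The feature passed the filter through faecal libraries alone, so it could be called in that direction only. DESeq2 (adjusted p = 0.302) and limma (0.194) did not call it, and without number 1 edgeR did (adjusted p = 0.0207).

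The 6 most abundant faecal features were also read in all 10 colon libraries, and for 2 of them the call depended on the libraries numbered 1. The feature of rank 1 in faeces was not read in faeces 1 and took 7.46% to 22.3% of reads in the other 8 faecal libraries (median over all 9, 8.75%), against 2.19% to 9.22% in colon (median 4.23%), where it ranked 5. Colon 1 was its highest colon library. The faecal mean of 11.1% ± 6.62 (SD, n = 9) stood against a colon mean of 4.90% ± 2.19 (SD, n = 10), a log2 fold change of -0.92 (SE 0.67, edgeR adjusted p = 0.712). Without number 1 the groups did not overlap, at 7.46% or more in faeces and at most 7.39% in colon, and the adjusted p was 0.0809.

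The features of rank 2 and 5 in faeces passed the test without number 1. Rank 2 took 4.33% to 16.3% of reads in the 8 faecal libraries other than number 1, where it was not read, and 1.12% to 3.48% in the 10 colon libraries. Leaving out number 1, it averaged 8.01% ± 4.09 in faeces (SD, n = 8) against 1.96% ± 0.834 in colon (SD, n = 9), a 4.08-fold difference (log2 fold change -1.55, SE 0.43, edgeR adjusted p = 0.0127, against 0.465 over all libraries). Rank 5 took 1.39% to 7.53% in those 8 faecal libraries and 0.374% to 1.44% in the 9 colon libraries other than colon 1, where it was 6.66%. Its means without number 1 were 5.19% ± 2.10 and 0.729% ± 0.341, 7.12-fold higher in faeces (edgeR adjusted p = 0.00336, against 0.465 over all libraries). Both features were higher in faeces in 8 of the 9 numbers, the exception being number 1.

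The feature of rank 4 in faeces, which ranked 2 in colon, showed no such difference: without number 1 its mean share was 5.45% ± 2.31 in colon (SD, n = 9) and 5.23% ± 3.23 in faeces (SD, n = 8) (edgeR adjusted p = 0.533). The features of rank 3 and 6 in faeces ranged widely within both compartments, rank 3 from 0.454% to 7.47% in colon and 0.167% to 14.3% in faeces, and neither passed the test (edgeR adjusted p = 0.872 and 0.896; without number 1, 0.356 and 0.918). Rank 7 was the leading feature of faeces 1, at 23.0% of its reads. Features of rank 8 to 10 in faeces had edgeR adjusted p of 0.900 to 0.944.

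**Figure D5:**
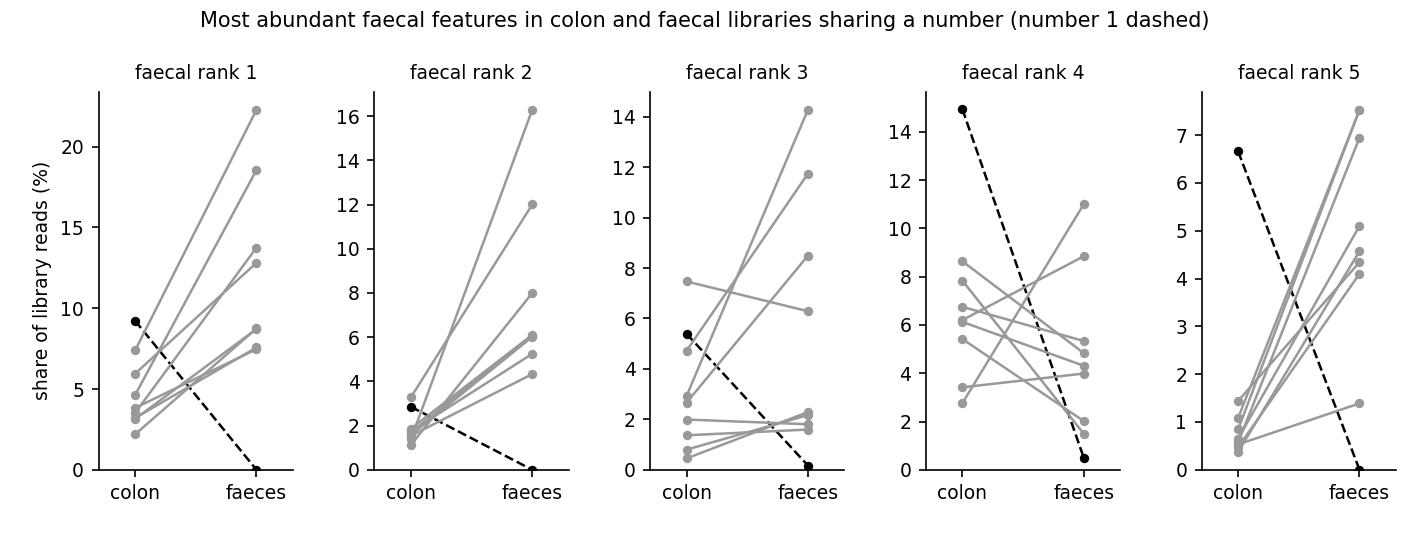
Share of library reads (%) of the 5 most abundant faecal features in colon and in faeces, with a line joining the libraries of each of the 9 shared numbers and number 1 dashed in black. In ranks 1, 2 and 5 every solid line rises from colon to faeces and the dashed line falls, while in ranks 3 and 4 solid lines run both ways.

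Over all 19 libraries, 0 of the 138 features tested (0%) had shares that did not overlap between colon and faeces. Without number 1, 3 of 122 did not overlap (2.46%): rank 3 of colon, and ranks 1 and 2 of faeces. Of the 8 features called only after number 1 was left out, 3 were features that faeces 1 held at 8.35%, 6.10% and 1.41% while the other faecal libraries held at most 0.0314% of any of them. They were then higher in colon, where 5, 5 and 6 of 9 libraries held them. The feature of rank 9 in colon, at 2.79% ± 2.23 in colon (SD, n = 9) and 0.442% ± 0.572 in faeces (SD, n = 8) without number 1, was a further one (edgeR adjusted p = 0.0315, against 0.129 over all libraries). The features of rank 2 and 5 in faeces were 2 more. The remaining 2 were rarer, 1 higher in colon (read in 4 of 9 colon and 1 of 8 faecal libraries, edgeR adjusted p = 0.0480) and 1 higher in faeces (read in 5 of 8 faecal and 0 of 9 colon libraries, edgeR adjusted p = 0.0210).

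The shocked rats gave a comparison of colon with faeces in libraries that the calls above had not used. There 15 of 136 features were called (11%), 5 higher in colon (3.68%) and 10 in faeces (7.35%; edgeR, adjusted p under 0.05). Of the 8 features called in controls, 7 could be tested in shocked rats, all 7 were higher in colon there as well, as were 27.2% of all features tested in shocked rats, and 5 were called. For 3 of the 7, not read in shocked faeces, no other direction was possible. The 4 features also read in faeces included the leading pair: f44404ea806c18f6b05b7cbb4f3e5fd2 was at 7.35% ± 1.87 of shocked colon reads and 1.11% ± 0.398 of shocked faecal reads (SD, n = 8 each; edgeR adjusted p = 0.00262), and e335f74033bc634af43ee6baa84fa247 at 6.24% ± 1.94 and 1.09% ± 0.446 (SD, n = 8 each; edgeR adjusted p = 0.00808), and for both the shocked groups did not overlap, as for 5 of the 136 features (3.68%). The features of rank 4 and 11 were not called there (edgeR adjusted p = 0.262 and 0.740).

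The 3 features not read in control faeces were also not read in any of the 8 shocked faecal libraries, and together took 8.16% ± 7.18 of shocked colon reads (SD, n = 8), between 0% and 18.2%. By depth, their joint share was 10.5% at 448 reads, 9.84% at 691, 17.6% at 1117 and 18.2% at 1287. In the deeper shocked colon libraries it was 0% at 2362 reads, 5.90% at 2982, 3.12% at 3432 and 0.0956% at 9418. A relation of this share to depth was not tested in shocked rats. Each of the 3 features was read in 6 of 8 shocked colon libraries (edgeR adjusted p = 0.000255, 0.000891 and 0.000888). Feature fe9a3e2c5c45bec637506a2ae1eb243c was read in 1 shocked faecal library and could not be tested. The features of rank 2 and 5 in faeces were called in shocked rats, both higher in faeces (edgeR adjusted p = 0.0466 and 0.0437). The median log2 fold change of all features tested was -1.10 in shocked rats, where the mean floor of 3 reads was 0.244% in colon and 0.0278% in faeces.

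No feature was called for a colon-to-faeces difference that itself differed between control and shocked rats: edgeR called 0 of 127 (0%; lowest adjusted p = 0.221), with 13 (10.2%) at an unadjusted p under 0.05, limma called 0 and DESeq2 3. For 4 of the 127 the difference could not be estimated, among them the 3 features with no read in any faecal library. Among the 4 other control calls in this fit the lowest adjusted p was 0.762.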

How the data were processed

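Control libraries were 10 of colon and 9 of faeces, grouped by the tissue and treatment labels. The members and lists were chosen with earlier results of these data known. Per the labels' protocols, DNA was extracted with a PowerSoil kit and the V3-V4 region amplified. Cutadapt is named in the submitters' processing notes, and the sources used here give neither its version nor the tool that made the features or its filters. The deposited values are raw counts of reads for 1073 features, not normalized by the authors. Its lowest count above 0 is 2, so a feature seen once in a library is absent, and "read" means at least 2 reads.

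Every feature found in 25% or more of a fit's libraries was tested with edgeR 4.0.16 (quasi-likelihood F test, TMM normalization) in R 4.3.3, and called at a Benjamini-Hochberg adjusted p under 0.05. The 138 features tested held 87.4% of colon and 83.1% of faecal reads. Shocked libraries were fitted alone, and the difference of both comparisons as an interaction. Shares are percentages of a library's reads, and folds are ratios of mean shares, taken against the mean floor of 3 reads where a group had none. Log2 fold changes are fitted values after TMM normalization, so they differ from the folds beside them. Library measures and distances were tested by exact permutation in Python 3.11.15 (scipy 1.17.1), two-sided for the former. Counts for the thinned edgeR fit were drawn with vegan 2.7.1. At 1000 reads, the number of features is the hypergeometric expectation and the Shannon index the mean of 100 draws. Correlations used 100000 permutations, or all of them below 10 libraries. Plots were made in matplotlib 3.10.9.

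Named by code are, among the called features, the 2 of highest mean share on each side (the faecal side had 1), and the 10 most abundant features of each compartment are described by rank. Those of rank 11 in colon and of the calls without number 1 were described because they were called. Alternatives were DESeq2 1.42.0 with poscounts size factors, limma 3.58.1 (centred log-ratios after adding 0.5 read), TMMwsp or totals alone, filters at 0 or 50% of libraries, 1 fit over 4 groups, thinning to 1000 reads, other distances and rarefaction depths, left-out libraries and the library number as a block. The relation to depth of the 3 called features alone was added after seeing the data.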

Additional observations from a re-analysis of the deposited data

Results flagged for a closer look

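Of 24 sets of values, each 1 measure in 1 group, 8 were marked by Dixon's criterion. In these the gap of 1 library to the rest was large against the range of its group. The criterion marks about 1 in 20 sets by chance only where values are normally distributed, which shares of single features need not be. Some sets also overlap, since the share of features not read in control faeces contains called features that form sets of their own. No chance rate is therefore given for the 8 marked sets.

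Of these, 4 were in colon 8, the library of 638 reads. Features not read in control faeces took 40.4% of its reads (95% exact interval 36.6% to 44.4%), and the next colon library had 20.7%. The 3 called features among them took 13.9% (rank 7 in colon, interval 11.4% to 16.9%), 13.01% (rank 6, 10.5% to 15.9%) and 10.8% (rank 10, 8.51% to 13.5%), where the next libraries had 3.47%, 4.82% and 2.92%.

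In colon 7 the feature of rank 4 took 21.7% of reads, with 9.99% in the next colon library, and the feature of rank 11 took 12.3%, with 4.38% in the next.

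In faeces 1 the mean Bray-Curtis distance to its group was 0.961, with 0.578 for the next library. Features not read in control colon took 43.1% of its reads (95% exact interval 41.9% to 44.3%), with 11.3% in the next faecal library.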

How the results depend on the processing

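The count of 8 features called between control colon and faeces was 5 with DESeq2, 3 of 50 with a filter at 50% of libraries, 14 after thinning to 1000 reads (7 of the 8 among them) and 16 without both libraries numbered 1. It was 395 of 763 with no filter on rare features, a setting whose median log2 fold change was -0.49, and the cause of that number was not tested. Leaving out 1 library gave 5 (without faeces 10) to 15 (without faeces 3). In shocked rats limma called 37 features (4 higher in colon and 33 in faeces) against 15, and DESeq2 called 3 interactions against 0. The library numbers did not meet the condition for pairing: deviations from the group means of same-numbered libraries correlated at -0.36 to 0.58 (median 0.03, 3 of 9 above 0.1), and 2 of 9 colon libraries correlated best with their own number. With the replicate block the count was 8 over 9 pairs, all higher in colon, but only 6 of these were among the 8 of the main fit. Without number 1 the block gave 20, with 7 of the main 8 among them. Over pairs, the log2 difference in reads was -1.02 (exact sign-flip permutation p = 0.0781), and the Shannon index was 0.260 higher in colon (exact permutation p = 0.0313). The distance between libraries of a same number differed from the mean of all by -0.00372 (permutation p = 0.835), and by -0.0325 without number 1 (permutation p = 0.0178). The difference in features per library turned to -2.21 without number 1 and to -0.498 at 500 reads. The share of variation in composition was 8.71% (Aitchison) to 31.4% and passed the test in all settings tried. Feature fe9a3e2c5c45bec637506a2ae1eb243c lost its call with the block (edgeR adjusted p = 0.175, and 0.122 without number 1), and could not be tested when any of the 5 faecal libraries that held it was left out. Depth limits absence in colon most, where 3 reads were up to 0.470% of a library.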
